A study of Mus musculus with 8 samples.

Results

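The epidermal differentiation complex is a stretch of mouse chromosome 3 that carries the genes of the cornified envelope, the cross-linked protein shell of dead surface keratinocytes. Its envelope genes were taken by name: every late cornified envelope gene (symbol Lce and a digit), every small proline-rich gene (symbol Sprr and a digit), and Ivl, Lor, Flg, Flg2, Hrnr, Rptn, Crnn, Crct1 and Kprp. This gave 47 of the 55488 genes in the tables, of which 21 were Lce genes, 17 Sprr genes, 5 genes of the S100-fused family (Flg, Flg2, Hrnr, Rptn and Crnn) and 4 single-copy envelope genes (Lor, Ivl, Crct1 and Kprp). All lie between position 92080271, the end of Lor, and position 93399442, the end of Rptn, on chromosome 3 of GRCm38. They were measured by bulk RNA-seq in dorsal skin of 3-month-old mice, in 4 wild-type libraries and 4 libraries from mice with a Tph1 knockout. Tph1 encodes the tryptophan hydroxylase that makes serotonin outside the brain, and the series concerns peripheral serotonin in skin. The labels give no strain, sex, allele or litter, and no agent was given to either genotype. Nothing in them states that the libraries are from separate mice, so the p-values measure only the spread between these libraries, part of which may be technical.

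Between 20531601 and 24678638 expected counts were assigned per library, and the totals of the genotypes overlapped (n = 4 each, exact permutation p = 0.743, two-sided). Tph1 itself had 18, 0, 27 and 11 counts in wild-type libraries 1 to 4 and 0 in each knockout library, so wild-type library 2 could not be told from a knockout by this gene. The keratinocyte keratins Krt5 and Krt14 had at least 40152 counts in every library. Across 16908 genes tested with edgeR's quasi-likelihood test, 110 passed a Benjamini-Hochberg adjusted p of 0.05, of which 90 were lower and 20 higher in knockout, and the median log2 fold change was 0.03. Log2 fold changes are knockout over wild type throughout, ± standard error.

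Keratinocytes leave the basal layer, fill with keratin and, in the granular layer, switch on the envelope genes in order. Involucrin and the plakins form a first scaffold below the membrane, loricrin and the small proline-rich proteins are cross-linked to it by transglutaminases, and the late envelope proteins follow. The S100-fused proteins join a calcium-binding domain to long repeats. Profilaggrin, the best known of them, is cut to filaggrin, which bundles keratin and is then broken down to the amino acids that hold water in the cornified layer. In bulk skin, fewer cells of a type and less RNA per cell cannot be told apart.

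The stretches just before the transcription start differ in kind between these families, and 10 of them are printed here because the families, described further on, also differed in which libraries were high and low. They are the 150 bases before the start in RefSeq's annotation of GRCm38.p6, 5′ to 3′ on the gene's strand. In the first set, of Lor, Ivl, Sprr1a and 3 S100-fused genes, capitals mark TGANTCA, where N stands for any base, and TATAAA, the TATA box core, with ATAAAAG also marked where it overlaps. Where N is C or G, TGANTCA is the core bound by activator protein 1 (Fos and Jun dimers), as in Lor, Ivl and Sprr1a; in Flg, Crnn and Rptn N is A or T, which is not that core.
Lor (chr3:92083143-92083292, minus strand): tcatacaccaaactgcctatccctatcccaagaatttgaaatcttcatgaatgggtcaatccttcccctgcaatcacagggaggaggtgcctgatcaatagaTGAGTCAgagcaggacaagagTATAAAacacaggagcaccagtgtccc
Ivl (chr3:92573736-92573885, minus strand): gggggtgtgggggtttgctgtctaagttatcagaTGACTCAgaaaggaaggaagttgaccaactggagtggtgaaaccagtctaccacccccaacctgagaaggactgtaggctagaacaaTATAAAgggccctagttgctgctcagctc
Sprr1a (chr3:92485882-92486031, minus strand): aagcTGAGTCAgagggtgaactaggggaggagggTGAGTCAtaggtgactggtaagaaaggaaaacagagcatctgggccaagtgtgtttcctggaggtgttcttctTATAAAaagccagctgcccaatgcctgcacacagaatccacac
Flg (chr3:93273396-93273545, plus strand): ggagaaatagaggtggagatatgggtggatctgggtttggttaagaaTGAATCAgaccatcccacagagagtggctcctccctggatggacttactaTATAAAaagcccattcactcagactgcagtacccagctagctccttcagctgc
Crnn (chr3:93144639-93144788, plus strand): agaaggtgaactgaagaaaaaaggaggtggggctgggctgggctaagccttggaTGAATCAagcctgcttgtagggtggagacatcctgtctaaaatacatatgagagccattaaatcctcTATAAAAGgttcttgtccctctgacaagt
Rptn (chr3:93393549-93393698, plus strand): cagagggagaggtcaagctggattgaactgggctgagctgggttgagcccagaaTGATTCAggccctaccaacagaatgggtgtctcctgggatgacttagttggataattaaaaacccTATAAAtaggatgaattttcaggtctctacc

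In the second set, of 4 Lce1 genes, capitals mark ACTGTNTCAC, 10 letters read from Lce1a2 that neighbouring Lce1 genes share, and ATAAAAG with TATAAA where present. Lce1m holds neither TGANTCA nor ACTGTNTCAC.
Lce1a2 (chr3:92670316-92670465, minus strand): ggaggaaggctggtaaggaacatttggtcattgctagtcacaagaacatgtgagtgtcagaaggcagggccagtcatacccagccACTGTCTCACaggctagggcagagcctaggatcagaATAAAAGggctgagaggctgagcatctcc
Lce1c (chr3:92679097-92679246, plus strand): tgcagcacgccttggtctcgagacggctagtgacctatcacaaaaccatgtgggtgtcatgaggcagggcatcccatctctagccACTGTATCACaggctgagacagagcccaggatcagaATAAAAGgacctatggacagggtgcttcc
Lce1h (chr3:92765066-92765215, minus strand): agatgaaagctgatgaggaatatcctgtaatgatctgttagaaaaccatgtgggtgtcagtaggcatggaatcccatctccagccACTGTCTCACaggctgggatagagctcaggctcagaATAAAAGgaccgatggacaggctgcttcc
Lce1m (chr3:93019062-93019211, minus strand): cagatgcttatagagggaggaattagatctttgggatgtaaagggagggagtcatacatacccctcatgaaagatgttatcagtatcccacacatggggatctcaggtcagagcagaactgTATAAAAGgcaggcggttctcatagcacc

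The letters of these motifs were chosen after these stretches had been seen, and matches were counted on both strands. ATAAAAG overlaps TATAAA in the run TATAAAAG. RefSeq windows of 250 bases before to 50 after the start were found for 41 of the 47 genes. TGANTCA was in 9 of 14 Sprr windows, 4 of 5 S100-fused windows, both single-copy windows (Lor and Ivl) and 0 of 20 Lce windows, against 7.81% of all 32851 windows. The activator protein 1 core alone, TGACTCA or on the other strand TGAGTCA, was in 8 of 14 Sprr windows, both single-copy windows, 0 of 5 S100-fused windows and 0 of 20 Lce windows, against 5.2% of all windows. TATAAA was in 10 of 14 Sprr windows, 4 of 5 S100-fused windows, both single-copy windows and 4 of 20 Lce windows, against 13.6% of all windows. Its relative ATAAAAG was in 15 of 20 Lce windows, against 5.42% of all. ACTGTNTCAC was in 10 of 13 Lce1 windows, starting between 53 and 65 bases before the transcription start, and in 0.262% of all windows. These matches describe letters in the reference and do not show that a factor binds there.

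Of the 47 genes, 29 had enough counts to be tested, about 10 counts in at least 4 libraries of either genotype. Of these, 23 reached that level in all 8 libraries. The other 18, of which 13 were Sprr genes and 5 Lce genes of the Lce3 group, were too low, and 6 of them (Lce3b, Sprr2b, Sprr2c-ps, Sprr2j-ps, Sprr2k and Sprr3) had 0 counts in every library. A limit of 3 counts, used here as an approximate upper limit for a count of 0, corresponds to between 0.113 and 0.139 CPM (counts scaled to library size) per library, for counting error only. Sprr3 is best known from the lining of mouth and esophagus.

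Loricrin and Crct1 fell in knockout, and these were the 2 envelope genes called lower, against 0.532% of all genes tested. None was called higher. At an unadjusted p of 0.05, 13 of the 29 were lower and 0 higher, against 9.37% of all genes lower. In 4 of the 29 (Lor, Crct1, Lce1m and Lce3c) all knockout libraries lay below all wild-type libraries, against 5.65% of all genes, and in 0 all lay above, against 5.39%. The fitted log2 fold change was negative in 27 of the 29, against 46.9% of all genes, and its median over the 29 was -1.04.

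Loricrin, the glycine-rich protein that makes up most of the mature envelope, had 2454, 1878, 2261 and 2255 CPM in wild-type libraries 1 to 4 and 585, 644, 921 and 1046 CPM in knockout libraries 1 to 4. The groups did not overlap, and the lowest wild-type library stood well above the highest knockout library. The means were 2212 ± 241 and 799 ± 220 CPM (SD, n = 4 each), a log2 fold change of -1.47 ± 0.24 (edgeR adjusted p = 0.0379). Per length, Lor was at 1763 ± 316 TPM (length-scaled transcript abundance, as deposited) in wild type and 627 ± 227 TPM in knockout. Lce1m, at 1389 ± 423 and 542 ± 99.2 TPM (SD, n = 4 each), was next in mean and within that spread, and exceeded Lor in wild-type library 3 (1859 against 1808 TPM) and in knockout libraries 1 and 2. Lor made up between 34.2% and 56.3% of all envelope gene counts in a library.

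Crct1, which encodes a small cysteine-rich protein and sits beside Lce1m, had 297, 206, 317 and 306 CPM in wild type and 73.2, 95.3, 134 and 123 CPM in knockout. The groups again did not overlap, and wild-type library 2 was the lowest of its group, as it was for Lor. Its log2 fold change was -1.40 ± 0.22 (edgeR adjusted p = 0.0324), from 281 ± 51.0 to 106 ± 27.5 CPM (SD, n = 4 each). Neither Lor nor Crct1 shares any run of 50 bases with another gene's transcripts.

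The other 2 single-copy genes had negative values that did not pass. Kprp, a keratinocyte proline-rich protein, had 287, 102, 141 and 142 CPM in wild type and 48.1, 69.9, 104 and 88.7 CPM in knockout, with a log2 fold change of -1.11 ± 0.33 (edgeR adjusted p = 0.154). Its groups overlapped by 1 library on each side, wild-type library 2 and knockout library 3. Involucrin, the early scaffold protein, was added to the named genes after its values were seen: Ivl had 88.2, 65.6, 44.6 and 59.7 CPM in wild type and 13.2, 15.1, 50.6 and 27.0 CPM in knockout. Here knockout library 3 was within the wild-type range and the other knockout libraries were below it, with a log2 fold change of -1.28 ± 0.40 (edgeR adjusted p = 0.166).

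**Figure D1:**
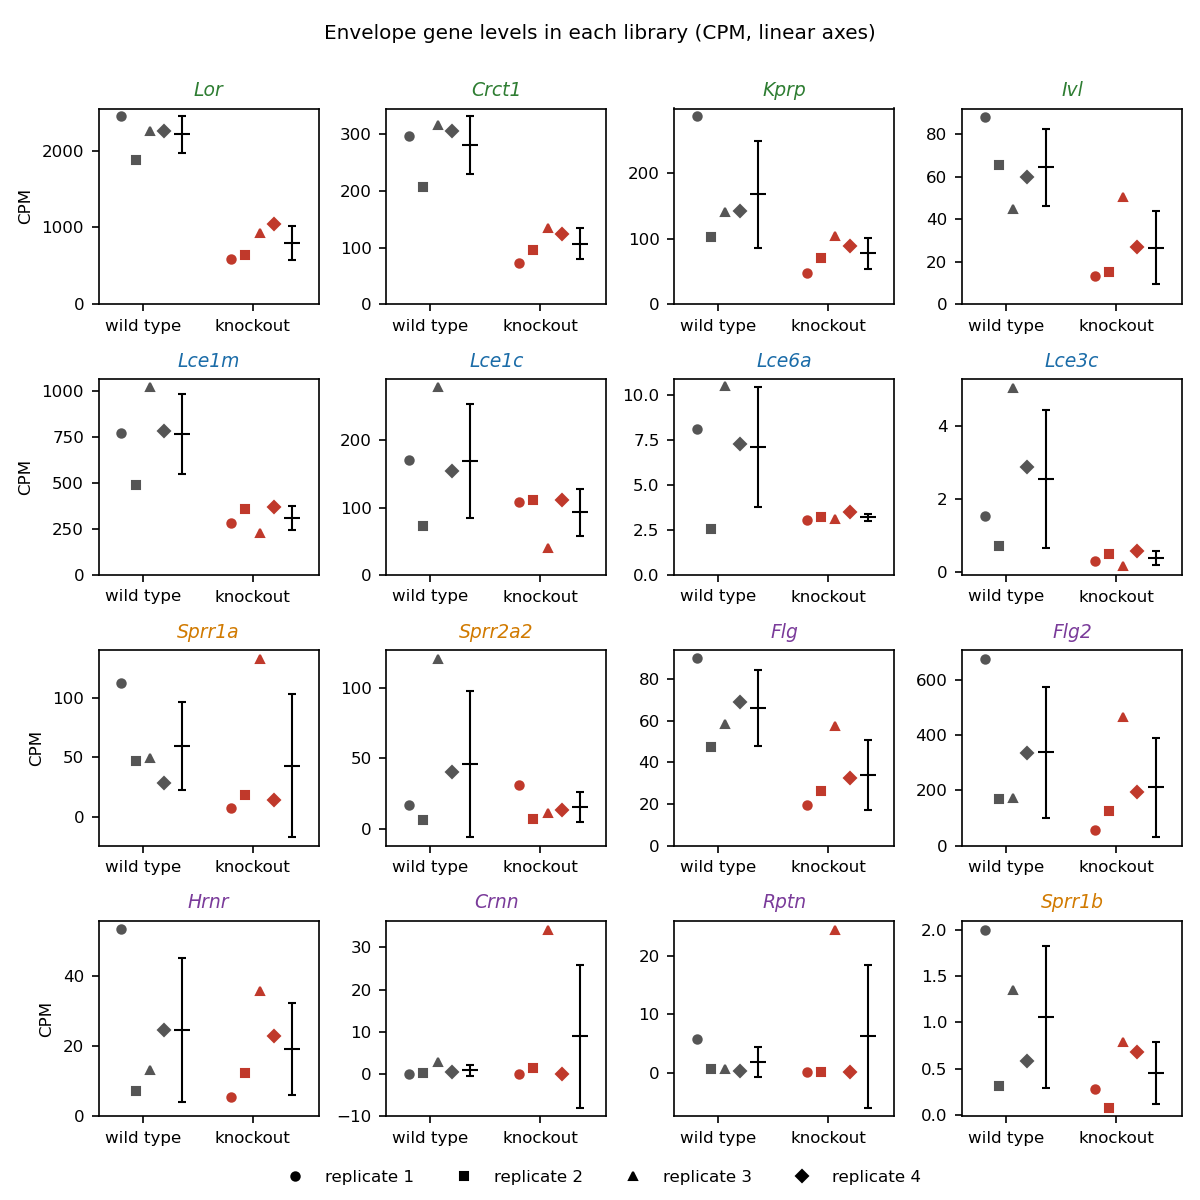
CPM (linear vertical axes, each with its own scale) of 16 envelope genes in 4 wild-type (grey) and 4 knockout (red) libraries, 1 symbol per library, with the mean and SD beside each group. Lor, Crct1, Lce1m and Lce3c separate the genotypes, while in Sprr1a, Crnn and Rptn knockout library 3 (133, 34.2 and 24.4 CPM) stands above the other knockout libraries.

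The late cornified envelope genes were lower in fitted value without a call: 16 of 21 were tested, 16 of 16 had a negative log2 fold change, from -2.66 to -0.86 with a median of -1.08, and 0 passed the adjusted threshold, while 8 had an unadjusted p under 0.05. Of these 16, 14 belong to the Lce1 group, with a median of -1.03 and standard errors between 0.25 and 0.66. Late envelope proteins are small and rich in cysteine and glycine, and are laid down last. The highest per length in wild type after Lce1m were Lce1a2 at 395 ± 186 TPM and Lce1c at 383 ± 199 TPM (SD, n = 4 each), which differ by less than their spread.

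Lce1m had 771, 492, 1025 and 782 CPM in wild type and 284, 358, 230 and 372 CPM in knockout. Its groups did not overlap, with wild-type library 3 the highest and knockout library 3 the lowest of the 8. The log2 fold change was -1.30 ± 0.25 (edgeR adjusted p = 0.0576), just outside the threshold. Like Lor and Crct1, Lce1m shares no 50-base run with another gene.

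Lce1a2 had 201, 86.2, 255 and 142 CPM in wild type and 94.7, 99.6, 43.5 and 99.0 CPM in knockout. Lce1c had 171, 72.9, 279 and 155 CPM in wild type and 109, 111, 40.4 and 112 CPM in knockout. In both genes wild-type library 2 was below 3 of the knockout libraries, so the groups overlapped, and their log2 fold changes were -1.02 ± 0.35 and -0.86 ± 0.41 (edgeR adjusted p = 0.199 and 0.311). The 13 Lce1 genes other than Lce1m share between 9.12% and 27.1% of their 50-base runs with another gene, so their counts depend in part on how reads were divided among copies.

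Lce3c and Lce6a are minor members. The Lce3 genes are known for induction after barrier injury and in psoriasis-like skin, and Lce3c had 1.55, 0.711, 5.03 and 2.88 CPM in wild type and 0.324, 0.5, 0.174 and 0.592 CPM in knockout. Its groups did not overlap, with a log2 fold change of -2.66 ± 0.63 (edgeR adjusted p = 0.0977), and 35.7% of its 50-base runs occur in another gene. Lce6a had 8.13, 2.53, 10.5 and 7.29 CPM in wild type and 3.05, 3.21, 3.14 and 3.5 CPM in knockout, where wild-type library 2 was the lowest of all 8 (log2 fold change -1.14 ± 0.37, edgeR adjusted p = 0.176).

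**Figure D2:**
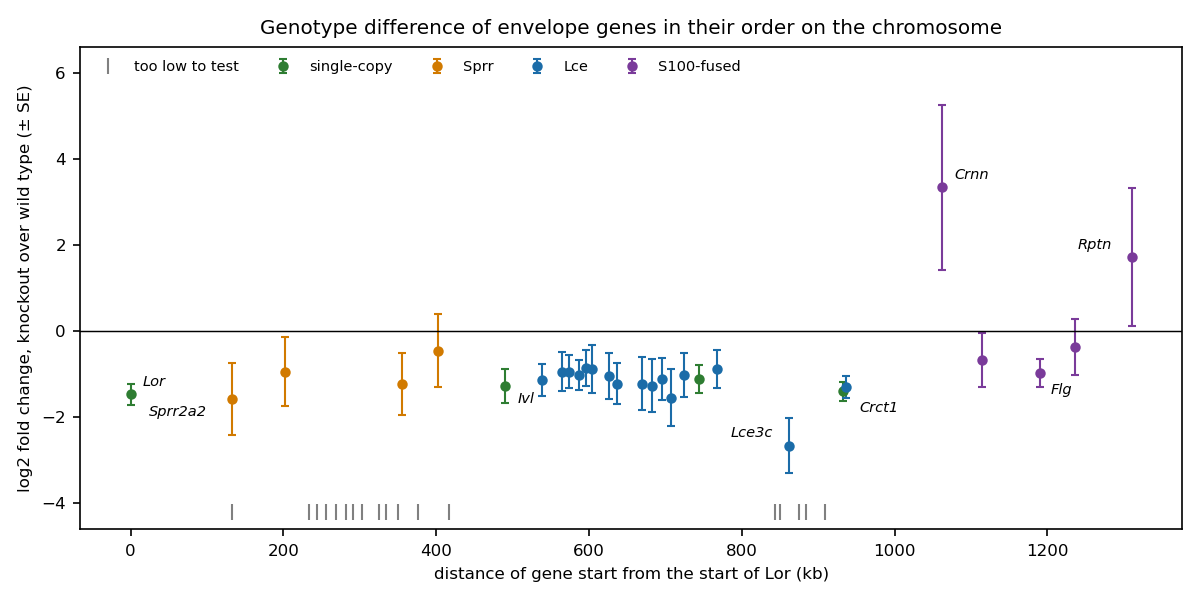
Log2 fold change (knockout over wild type, ± SE, vertical axis) of the 29 tested envelope genes against the distance of the gene from Lor in kilobases (horizontal axis), coloured by family, with grey ticks for the 18 genes too low to test. The Lce and single-copy genes lie between -2.66 and -0.86, and the S100-fused genes at the far end spread from -0.97 to 3.34.

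The small proline-rich genes gave few measurable members in this skin: 4 of 17 were tested, 0 were called, 0 had an unadjusted p under 0.05, and all 4 log2 fold changes were negative, from -1.58 to -0.46. The proteins act as short flexible cross-bridges between other envelope proteins, and Sprr1a, Sprr1b and Sprr2 genes are known to be induced by injury and irritation. Sprr1a had 113, 47.3, 49.7 and 28.7 CPM in wild type and 7.59, 18.1, 133 and 14.2 CPM in knockout. Knockout library 3 was the highest of all 8 libraries and the other 3 knockout libraries were below every wild-type library. The log2 fold change was -0.46 ± 0.85 (edgeR adjusted p = 0.808), -2.16 without knockout library 3 and 0.05 without wild-type library 1.

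Sprr2a2 had 17.1, 6.09, 121 and 40.1 CPM in wild type and 31.0, 6.50, 11.4 and 13 CPM in knockout. The wild-type libraries spanned the knockout range, with library 3 the highest and library 2 the lowest of all 8, and the log2 fold change was -1.58 ± 0.84 (edgeR adjusted p = 0.356), or -0.45 without wild-type library 3. Sprr2a2 shares 96.5% of its 50-base runs with another gene, and its gene model overlaps that of Sprr2a1 on the same strand, so their reads cannot be told apart. With Sprr2a1, Sprr2a2 and Sprr2a3 summed, the values were 17.5, 6.35, 127 and 42.9 CPM in wild type and 32.2, 6.83, 12 and 13.6 CPM in knockout (log2 fold change -1.59 ± 0.84, edgeR adjusted p = 0.354). The summed value and that of Sprr2a2 alone differed by less than their standard errors.

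The other Sprr genes were low, and near the detection limit in some libraries. Sprr1b had 2, 0.311, 1.35 and 0.585 CPM in wild type and 0.278, 0.0833, 0.784 and 0.683 CPM in knockout, with overlapping groups (log2 fold change -1.22 ± 0.72, edgeR adjusted p = 0.398). Sprr2a3 ranged from 0.267 to 2.97 CPM in wild type and from 0.125 to 1.16 CPM in knockout (log2 fold change -0.94 ± 0.80, edgeR adjusted p = 0.561). Sprr4, too low to test, had 2.68, 0.711, 0 and 0.225 CPM in wild type and 0.139, 0.333, 5.10 and 0.0910 CPM in knockout, with knockout library 3 the highest, as for Sprr1a.

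No S100-fused gene passed the test: all 5 were tested, 0 were called, 1 (Flg) had an unadjusted p under 0.05, and 3 of the 5 log2 fold changes were negative, with a median of -0.36. This median rested on single libraries: without knockout library 3 it was -1.35 with 5 of 5 negative, and without wild-type library 1 it was 0.35. Profilaggrin had 90.3, 47.3, 58.6 and 68.8 CPM in wild type and 19.3, 26.3, 57.6 and 32.5 CPM in knockout. Knockout library 3 was inside the wild-type range and the other 3 were below it. The log2 fold change of Flg was -0.97 ± 0.32 (edgeR adjusted p = 0.188), and without knockout library 3 it was -1.35 (edgeR adjusted p = 0.0486).

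Filaggrin 2 and hornerin resemble filaggrin in structure and also reach the cornified layer. Flg2 had 675, 168, 173 and 333 CPM in wild type and 56.8, 125, 464 and 195 CPM in knockout, with overlapping groups (log2 fold change -0.68 ± 0.63, edgeR adjusted p = 0.594). Its value was -1.42 without knockout library 3 and -0.10 without wild-type library 1. Hrnr had 53.1, 7.15, 13.2 and 24.6 CPM in wild type and 5.64, 12.2, 35.6 and 22.9 CPM in knockout, also overlapping (log2 fold change -0.36 ± 0.65, edgeR adjusted p = 0.799). In both, wild-type library 1 and knockout library 3 were the highest of their groups. Per length in wild type, Flg at 57.7 ± 14.4 TPM and Flg2 at 40 ± 31.1 TPM differed by less than their spread, and Hrnr was lower at 3.12 ± 2.89 TPM (SD, n = 4 each).

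Cornulin and repetin are the 2 members with positive values, and both rest on 1 library. Crnn, known best from the esophagus, had 0, 0.133, 2.88 and 0.540 CPM in wild type and 0, 1.42, 34.2 and 0.0455 CPM in knockout. Rptn, known from the inner root sheath of the hair follicle and the tongue as well as epidermis, was added to the named genes after its values were seen and had 5.75, 0.711, 0.629 and 0.405 CPM in wild type and 0.231, 0.125, 24.4 and 0.273 CPM in knockout. Knockout library 3 was far above the other knockout libraries in both genes. The log2 fold changes were 3.34 ± 1.91 for Crnn and 1.72 ± 1.6 for Rptn (edgeR adjusted p = 0.384 and 0.596), and without knockout library 3 they were -0.82 and -3.15.

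The families differed in which libraries were high and low within a genotype. In 14 of 14 Lce1 genes wild-type library 3 was the highest wild-type library, against 24.4% of all genes, wild-type library 2 was the lowest, against 26.1%, and knockout library 3 was the lowest knockout library, against 33.3%. In 5 of 5 S100-fused genes knockout library 3 was instead the highest knockout library, against 29.2% of all genes, and wild-type library 1 was the highest wild-type library in 4 of 5, against 30.7%. In the single-copy genes knockout library 3 was the highest knockout library in 3 of 4. The Lce1 genes share sequence and so are not independent of each other.

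The ratio of summed Lce1 counts to summed S100-fused counts shows the same contrast. It was 2.07, 3.6, 9.53 and 3.44 in wild-type libraries 1 to 4 and 9.3, 5.24, 0.7 and 3.45 in knockout libraries 1 to 4. The genotypes overlapped over nearly their whole range, and the lowest ratio was that of knockout library 3, the only library with more S100-fused than Lce1 counts. Among the 26 tested genes with a RefSeq window, knockout library 3 was the highest knockout library in 7 of the 8 that hold TGANTCA and the lowest in 0 of them, and was the highest in 1 and the lowest in 14 of the 18 without it, of which most are Lce genes. With the activator protein 1 core alone the counts were 2 highest and 0 lowest of 3 genes with it, and 6 highest and 14 lowest of 23 without it. Over all genes tested, knockout library 3 was the highest knockout library in 29.2% and the lowest in 33.3%. The letters of TGANTCA were chosen after these stretches had been seen, so the split by motif is no independent evidence. TGANTCA and family coincide almost fully, so they cannot be told apart here, and no test was made of this difference.

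**Figure D3:**
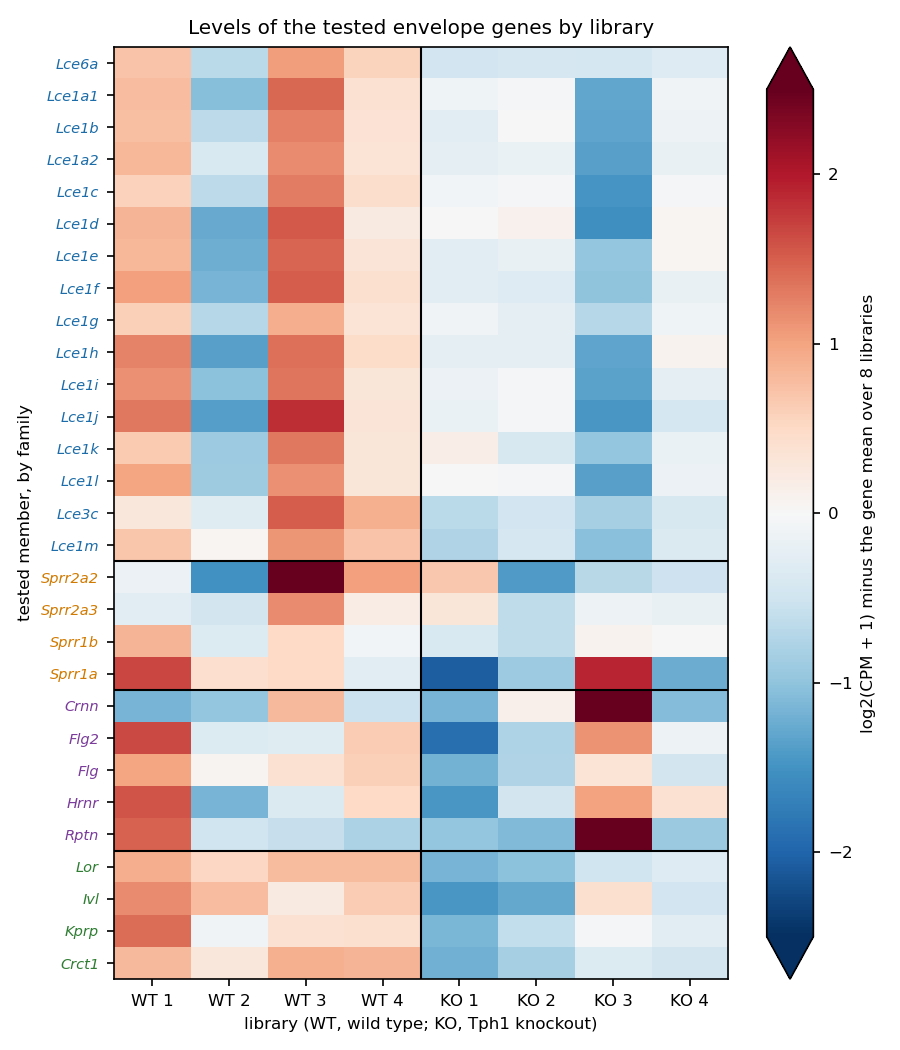
Log2(CPM + 1) of each tested envelope gene (vertical axis, by family) in each library (horizontal axis) minus the gene's mean over the 8 libraries, with colours clipped at the ends of the scale. Knockout library 3 is low in all 14 Lce1 genes and high in all 5 S100-fused genes relative to the other knockout libraries.

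Envelope genes as a whole took 0.621%, 0.325%, 0.604% and 0.451% of all counts in wild-type libraries 1 to 4 and 0.142%, 0.194%, 0.264% and 0.225% in knockout libraries 1 to 4. The groups did not overlap in this share, of which Lor alone made up between 34.2% and 56.3% in a library. The mean log2(CPM + 1) over the 29 tested genes did overlap. It was 5.33, 3.91, 5.47 and 4.86 in wild type and 3.92, 4.04, 4.22 and 4.21 in knockout, with wild-type library 2 the lowest. By family, the mean log2(CPM + 1) of the tested single-copy genes was 8.13 ± 0.30 in wild type and 6.78 ± 0.51 in knockout, that of the Lce1 genes 5.14 ± 0.96 and 4.30 ± 0.54, and that of the S100-fused genes 4.08 ± 0.61 and 3.88 ± 1.43 (SD, n = 4 each). Only the single-copy level separated the genotypes among these 3, and whether the families differ in their response was not tested.

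Other genes of late differentiation were also lower in part. The counts called lower in the lists that follow stand against 0.532% of all genes tested. Of 19 tested genes of the suprabasal keratin and spinous layer list, 4 fell and 0 rose, with a median log2 fold change of -0.62: Lypd3 at -1.40 ± 0.17, Calm4, a calmodulin-like protein of skin, at -1.54 ± 0.21, Krt78 at -1.11 ± 0.15 and Krtdap, a keratinocyte differentiation-associated protein, at -1.37 ± 0.21 (edgeR adjusted p = 0.0111, 0.0202, 0.0220 and 0.0324). Of 17 tested genes of envelope assembly and cross-linking 0 were called, with a median of -0.54. Its members with the smallest p were Alox12b, a lipoxygenase of the lipid envelope, at -1.49 ± 0.28 and Cnfn (cornifelin) at -1.65 ± 0.37 (edgeR adjusted p = 0.0538 and 0.0841).

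Of 19 genes of filaggrin processing and proteolysis 1 fell, the kallikrein Klk8 (log2 fold change -1.25 ± 0.20, edgeR adjusted p = 0.0324), and 0 rose, with a median of -0.46. Klk7, which cuts the links between cornified cells, was at -1.34 ± 0.34 (edgeR adjusted p = 0.110). Of 26 transcription factors of late differentiation 1 fell, Cebpb at -0.81 ± 0.13 (edgeR adjusted p = 0.0324), with a median of -0.38. Grhl3, a factor needed for the skin barrier, was at -1.25 ± 0.25 (edgeR adjusted p = 0.0646). Of 23 tested other genes of the complex on chromosome 3, 2 fell, Them5 at -1.05 ± 0.17 and 2310050C09Rik at -1.24 ± 0.22 (edgeR adjusted p = 0.0324 and 0.0458), with a median of -0.64, and of 7 tested esophageal and tongue type genes 0 were called (median -0.50).

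Levels of other cell types and of immediate early and heat shock genes varied between the same libraries. Many genes of the immediate early and heat shock list can respond to stress, tissue handling among others, and the part of handling was not tested. The list had a mean log2(CPM + 1) of 8.29, 7.04, 8.47 and 7.87 in wild type and 6.73, 7.19, 6.66 and 6.59 in knockout. Wild-type library 2 was the lowest wild-type library here, as in the Lce1 genes, and lay below knockout library 2. Of its 29 tested genes 1 fell, Nr4a1 (log2 fold change -2.18 ± 0.33, edgeR adjusted p = 0.0324), and 28 were negative, with a median of -1.10. The 9 activator protein 1 subunit genes, several of which are on that list, were all negative with a median of -2.01 and 0 called. The smallest p were those of Fosl1 at -5.64 ± 1.16 and Jund at -1.59 ± 0.34 (edgeR adjusted p = 0.0675 and 0.0744). Fosl1 had 40.1, 2.44, 9.53 and 1.71 CPM in wild type and 0.278, 0.0416, 0.566 and 0.182 CPM in knockout. Its wild-type mean rested largely on library 1, and its knockout values were near the detection limit.

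With the level of the immediate early and heat shock list as a term in the fit, Lor was at -1.41 (edgeR adjusted p = 0.523) and Crct1 at -1.08 (edgeR adjusted p = 0.550). The median log2 fold change of the Lce genes was then 1.01, of the Sprr genes 0.73 and of the S100-fused genes 0.92, while that of the single-copy genes was -1.25. Only 9 of the 29 values were negative in that fit, since 18 had turned positive. The call of Lor and Crct1 was thus lost and their direction kept, and the median of each multigene family changed sign. The level largely followed genotype, as only wild-type library 2 lay below any knockout library. The fit therefore separates level from genotype poorly. Standard errors went from 0.24 to 0.41 for Lor, from 0.65 to 1.51 for Hrnr (the S100-fused median) and from 0.66 to 0.63 for Lce1j. In that fit 5 genes were called in all, and 0 of the 29 were called lower, against 0.0118% of all genes.

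Hair follicle genes stood apart in knockout library 3. The inner root sheath and hair matrix list summed to 60.4, 56.6, 302 and 125 CPM in wild type and 45.6, 257, 2893 and 58.7 CPM in knockout, and Tchh, the trichohyalin gene next to the S100-fused members, had 921 CPM in knockout library 3 against 7.33 to 47.6 CPM elsewhere. Of 23 list genes measured, 5, 4, 0 and 1 were at 0 in wild-type libraries 1 to 4 and 6, 0, 0 and 0 in knockout libraries 1 to 4. Of the 19 tested, 0 were called (median 2.31). This is the library in which Crnn, Rptn, Sprr1a and Sprr4 were highest, and the part of hair follicle content in those values was not tested.

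The basal keratinocyte list differed little: its level was 8.47, 8.65, 8.89 and 8.40 in wild type and 8.57, 8.61, 8.06 and 8.48 in knockout, the median log2 fold change of its 16 genes was -0.12 and 0 were called. Knockout library 3 was the lowest here and in the Lce1 genes. With this level as a term in the fit Lor, Crct1, Ivl and Flg were called lower, 4 of the 29 against 0.68% of all genes.

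Skeletal muscle genes, from the muscle below the skin, had levels of 9.80, 11.07, 8.55 and 10.84 in wild type and 11.31, 10.57, 10.63 and 11.34 in knockout. All 31 had positive values (median 0.55) with 0 called. Among wild-type libraries the muscle level was highest in library 2 and lowest in library 3, the reverse of the Lce1 genes. Among knockout libraries muscle was lowest in library 2 and the Lce1 genes in library 3. How muscle content relates to the Lce1 levels was not tested. With the muscle level as a term, Lor was at -1.42 and Crct1 at -1.25 (edgeR adjusted p = 0.0931 and 0.0941). The median log2 fold change was then -0.36 for the Lce genes, -0.18 for the Sprr genes, -0.08 for the S100-fused genes and -1.27 for the single-copy genes, and 0 of the 29 were called lower, against 0.112% of all genes. Medians of the adipocyte, dermal fibroblast and sebaceous gland lists were -0.51, -0.40 and 0.13, with 0 called in each. The sebaceous gland level was highest in knockout library 3, as for the hair follicle genes. It was 6.31 there, against 3.86 to 4.87 in the other knockout libraries and 4.42 to 5.28 in wild type. The part of sebaceous content in the envelope gene values was not tested.

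**Figure D4:**
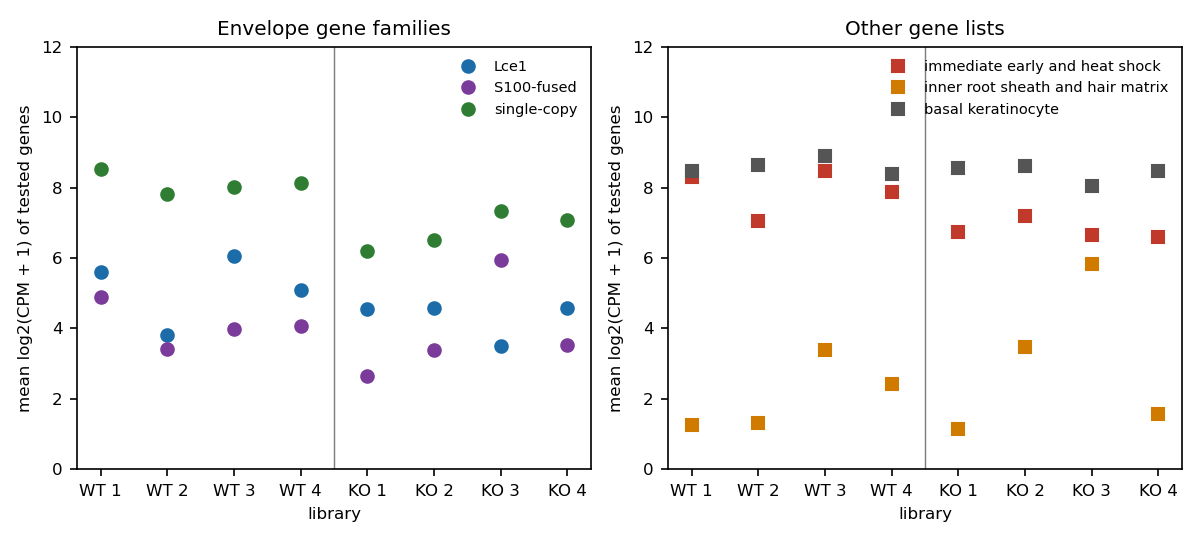
Mean log2(CPM + 1) (vertical axes) in each library (horizontal axes) of the tested genes of 3 envelope families, left, and of 3 other gene lists, right. Single-copy genes separate the genotypes, Lce1 genes are low in wild-type library 2 and knockout library 3, and the hair list is highest in knockout library 3 at 5.82.

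The calls of Lor and Crct1 depended on which libraries were in the fit. Leaving out 1 library at a time, the log2 fold change of Lor stayed between -1.63 and -1.35 and passed in 1 of 8 fits (without knockout library 3, edgeR adjusted p = 0.0424), and that of Crct1 stayed between -1.54 and -1.27 and passed in 2 of 8 (without wild-type library 2 or knockout library 3, edgeR adjusted p = 0.0271 and 0.0256). Without any one of the 6 libraries other than wild-type 2 and knockout 3, 0 of the 29 were called lower, where all genes gave 0.0989% (without wild-type library 1), 0.139% (wild-type 3), 0.104% (wild-type 4), 0.0462% (knockout 1), 0.0174% (knockout 2) and 0.0463% (knockout 4). Without wild-type library 2, Crct1, Lce1m and Lce6a were called lower, against 0.451% of all genes. Without knockout library 3, Lor, Crct1, Ivl and Flg were called lower, against 0.856% of all genes, and all 29 tested genes had negative values. In 9 of the 29 the 3 remaining knockout libraries lay below all wild-type libraries, against 9.51% of all genes: the 4 single-copy genes, Flg, Rptn, Sprr1a, Lce1m and Lce3c. With DESeq2's Wald test, 7 of the 29 were called lower (Lor, Crct1, Ivl, Kprp, Lce1m, Lce3c and Lce6a), against 3.83% of all genes. Without wild-type library 2 and knockout library 3 together, 4 were called lower (Crct1, Flg, Lce1m and Lce6a), against 0.878%, and without the filter on low counts 3 (Lor, Crct1 and Lce1m), against 0.423%. Lor and Crct1 were the 2 called with RLE factors (0.479% of all genes lower), upper-quartile factors (0.373%), an effective length offset (0.355%), the Sprr2a genes summed (0.532%) and the authors' matrix (0.431%).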

How the data were processed

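Dorsal skin RNA of 4 wild-type and 4 Tph1 knockout libraries was measured; groups came from the genotype labels, and replicate numbers follow accession order. The genes and gene lists were chosen with earlier results of these data known. Per the labels' protocols, a Qiagen kit gave the total RNA and a NEBNext Ultra kit the libraries; the kit does not mark strand, so overlapping genes cannot be told apart. RSEM 1.31, STAR 2.7.6a, DESeq, DESeq2 and the build GRCm38 are named, without roles, in the submitters' processing notes. The authors deposited RSEM expected counts per gene, not normalized, in which 10.7% to 11.5% of a library's genes were not whole because RSEM divides reads between similar genes. The deposited TPM values, per the file headers scaled to gene length and library size, were used to compare levels between genes. The deposited FPKM values entered no test. The authors' normalized signal matrix of 17382 genes entered 1 alternative, and the deposited effective lengths another.

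Expected counts were rounded, genes filtered with filterByExpr (minimum count 10, total 15), scaled by TMM and tested with edgeR 4.0.16 (robust quasi-likelihood F test, R 4.3.3), with Benjamini-Hochberg adjustment over 16908 genes. Standard errors are the absolute log2 fold change over √F. List levels are means of log2(CPM + 1). Of the identifiers, 17354 were named from the authors' matrix, 37798 from a name table and 336 had no symbol. Coordinates are GENCODE M21 on GRCm38. Shared 50-base runs were counted over transcripts, and genes sharing over 50% were summed in 1 alternative. Named genes were those called and, in each family, the 3 with the smallest p and the 3 with the highest wild-type TPM; Ivl and Rptn were added after their values were seen. Of 14 gene lists, called genes and the 2 with the smallest p were considered for naming. The 19 alternatives included DESeq2 1.42.0, other size factors, covariates and leaving out libraries; limma 3.58.1 on log2(value + 1) of the authors' matrix was chosen after seeing the data. The edgeR step was tested on simulated counts.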

Additional observations from a re-analysis of the deposited data

Results flagged for a closer look

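In 4 of 34 groups of 4 libraries checked, 1 library lay apart from the other 3 by more than Dixon's critical value for the gap as a share of the group's range; chance alone does this in about 1 in 20 groups. The 4 are not independent, since each concerns the same library, knockout library 3. Among the Lce genes it was the low one: Lce1a2 had 43.5 CPM there against 94.7 to 99.6 CPM in the other knockout libraries, and Lce1c had 40.4 CPM against 109 to 112 CPM. In the other families it was the high one: Sprr1a had 133 CPM against 7.59 to 18.1 CPM, and Crnn 34.2 CPM against 0 to 1.42 CPM. Sprr4, too low to test, is not among the 4, though it had 5.10 CPM in knockout library 3 against 0.0910 to 0.333 CPM in the other knockout libraries. Rptn was added after its values were seen, so its groups are not counted above: it had 24.4 CPM in knockout library 3 against 0.125 to 0.273 CPM in the other knockout libraries, and 5.75 CPM in wild-type library 1 against 0.405 to 0.711 CPM in the other wild-type libraries.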

How the results depend on the processing

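The direction of Lor and Crct1 was kept in every alternative run, and with RLE or upper-quartile factors, the effective length offset, near-identical genes summed or the authors' matrix the 2 genes called stayed Lor and Crct1. Genes called over the whole table were 994 with DESeq2, 5 with the immediate early and heat shock level as a term, 25 with the muscle level and 167 without wild-type library 2 and knockout library 3 together, and ranged from 8 to 170 leaving out 1 library. Envelope genes called lower were 7, 0, 0 and 4 under those 4 settings, 4 with the basal keratinocyte level, and 0 to 4 leaving out 1 library (4 without knockout library 3). With the immediate early and heat shock level, the median log2 fold change was 0.86 over all tested envelope genes, 1.01 for Lce, 0.73 for Sprr and 0.92 for S100-fused genes, and 18 of the 29 values turned positive, among the named genes Lce6a (0.34), Lce1a2 (0.19), Lce1c (0.55), Sprr2a2 (1.47), Sprr1b (0.33), Sprr2a3 (1.12) and Hrnr (0.92). With the muscle level the medians were -0.37 over all, -0.36 for Lce, -0.18 for Sprr and -0.08 for S100-fused genes, and 3 values turned positive, Sprr2a3 (0.11), Lce1d (0.03) and Sprr1a (0.00). Without both named libraries the Sprr median was -1.88, and Crnn was at -1.22. Leaving out 1 library, the medians ranged from -1.30 to -0.80 over all, -1.41 to -0.78 for Lce, -1.53 to -0.49 for Sprr, -1.35 to 0.35 for S100-fused (0.35 without wild-type library 1) and -1.54 to -1.16 for single-copy genes. Single genes that changed sign ranged from -2.16 to 0.05 for Sprr1a and -0.85 to 0.35 for Hrnr (positive without wild-type library 1), -1.46 to 0.09 for Sprr2a3 (positive without wild-type library 3), and -0.82 to 5.33 for Crnn and -3.15 to 3.42 for Rptn (negative without knockout library 3). Without changing sign, Flg2 ranged from -1.42 to -0.10, Sprr2a2 from -2.18 to -0.45 (-0.45 without wild-type library 3), Sprr1b from -1.61 to -0.71 and Kprp from -1.30 to -0.72 (-0.71 and -0.72 without wild-type library 1), and Lce1c from -1.13 to -0.51 (-0.51 without wild-type library 3). Rptn was at -2.5 with the basal keratinocyte level and -0.47 in the authors' matrix. The cause of these changes was not tested. The immediate early and heat shock level largely followed genotype, so that fit separates level from genotype poorly. Standard errors grew there for Hrnr, from 0.65 to 1.51, and changed little for several Lce genes, such as Lce1f, from 0.48 to 0.50. No paired analysis was possible because the replicate numbers follow accession order and pair no libraries. Depth limits the 18 untested genes and those at a few CPM; DESeq2 gave no adjusted p for 2 of the 29.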
